A study of Mus musculus with 40 samples.

Results

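Resting mouse CD4+ T cells of a pair of populations were compared, regulatory T cells of thymic origin (tTregs) and conventional T cells (Tconvs), and the members described here are the 6 RNA-seq libraries of that comparison, 3 from resting tTregs and 3 from resting Tconvs, out of the 40 samples of the whole series. Which libraries belong to it follows from their labels, and no measured value was used to assign them. Per the study's methods, both populations were sorted from spleens of Foxp3-GFP mice at 2 to 4 months of age. These mice carry a green fluorescent reporter behind *Foxp3*, and the methods give a C57BL/6 background unless noted otherwise. The tTregs were sorted as CD4+ Foxp3-GFP+ cells. This gate holds every Foxp3+ cell of the spleen and does not separate cells of thymic from those of peripheral origin, and the gate of the Tconvs used for RNA-seq is not given in the sources used here. Resting means that neither group had been stimulated through the T cell receptor in culture. A rest of 1 day in medium with IL-2 is stated for other experiments of the study with these cells, and whether it was applied to these libraries is not given. Activated cells of both kinds (3 libraries each), stimulated through the T cell receptor, are used where they show how a difference of resting cells stood elsewhere. Resting iTregs (3 libraries) are used likewise. They are Tregs induced in culture, per the methods from naive T cells of 6-week-old mice, so that the age of the animals differs. The methods give induction with antibodies to CD3 and CD28, TGF-β and IL-2, then a rest of 1 day in medium with IL-2. Unlike the other resting groups, resting iTregs had thus been stimulated through the T cell receptor earlier in culture.

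Tregs restrain other T cells and keep peripheral tolerance. Their identity rests on the forkhead transcription factor Foxp3 with partners of the Ikaros and NFAT families, on constant uptake of IL-2 through the high-affinity receptor that contains CD25 (*Il2ra*), and on surface molecules such as CTLA-4 that remove or mask costimulatory ligands on dendritic cells. IL-2 acts through the kinases JAK1 and JAK3 and the transcription factor STAT5, which binds paired TTC and GAA sites. Naive Tconvs in turn depend on IL-7 and carry a quiescence program led by the transcription factors TCF-1 (*Tcf7*) and LEF-1.

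The 6 libraries held 6762831 to 11974028 reads on genes, the tTreg libraries 6762831 to 9688361. The values are normalized counts, gene counts divided by a size factor for each library, and 3 reads, the smallest number taken as detection, were worth 2.63 to 3.89 normalized counts. In bulk samples, fewer cells of a type and less RNA per cell cannot be told apart. Nothing in the labels says that replicates came from separate animals or cultures. The p-values therefore measure a spread between libraries, pooled over the 15 libraries of the fit, and this spread may be technical. The tTreg libraries were more variable than the Tconv libraries, with a median SD over genes of 0.197 against 0.103 on the log2 scale. One library stood apart for a group of genes: in tTreg replicate 1, 297 genes with at least 100 normalized counts lay more than 1 log2 unit below both other tTreg libraries, whereas replicates 2 and 3 had 1 and 4 such genes, and replicate 3 had 110 genes as far above both others. The genes low in replicate 1 had a median transcript length of 2648 bases against 3380 over all genes tested. Differences also moved with transcript length across the genes tested. The median log2 fold change, tTregs over Tconvs, was -0.21 in the fifth of genes with the shortest transcripts and 0.23 in the fifth with the longest. Every count was repeated with this trend removed, and values after its removal are given where they add or end the call of a named gene or move a list count by over 1.5 times, and for the calcium, naive and ribosomal genes.

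The sort was checked on *Foxp3* first (chrX:7573644-7595245, plus strand, GRCm38). It stood at 7218, 7767 and 7627 normalized counts in the tTreg libraries and at 11.3, 10.3 and 9.65 in the Tconv libraries. All tTreg libraries lay far above all Tconv libraries, with a log2 fold change of 9.37 ± 0.09 (SE) and an adjusted p of 6.00e-18. Of its exon bases, 31.5% lie in exons of other genes, mostly *Ccdc22*, and the library method keeps no strand, so that some reads could belong to the neighbour. The 5 Treg markers fixed for the check (*Foxp3*, *Il2ra*, *Ikzf2*, *Ctla4*, *Tnfrsf18*) were higher in tTregs in 5 of 5 cases. CD4 T cell identity was present in both groups, with *Cd4*, which encodes the CD4 coreceptor, at 4579, 4972 and 4073 in tTregs and 8729, 8818 and 8749.9 in Tconvs. Of 8 T cell and CD4 markers tested, 1 was higher and 5 were lower in tTregs (median -0.86).

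Promoter sequences, from RefSeq on GRCm38.p6, are shown for 6 genes of the account that follows. Only genes with a match in a window were shown, so that a match in each was fixed by this choice. Each window runs from 250 bases before to 50 bases after a transcription start, and is written 5′ to 3′ on the gene's strand, and of genes with several starts a window that holds a match is shown. Capitals mark matches to TTCNNNGAA, the pair of sites that STAT5 recognises, in the first 5 sequences, and matches to TGTTTAC on either strand, the core that forkhead factors such as FOXO1 recognise, in the last. *Cish* and *Socs3* are textbook STAT targets, *Foxp3* and *Tnfrsf9* were among the largest rises, and *Il7r* and *Tcf7* were among the largest falls of the naive gene list.
Cish (chr9:107296409-107296708, plus strand): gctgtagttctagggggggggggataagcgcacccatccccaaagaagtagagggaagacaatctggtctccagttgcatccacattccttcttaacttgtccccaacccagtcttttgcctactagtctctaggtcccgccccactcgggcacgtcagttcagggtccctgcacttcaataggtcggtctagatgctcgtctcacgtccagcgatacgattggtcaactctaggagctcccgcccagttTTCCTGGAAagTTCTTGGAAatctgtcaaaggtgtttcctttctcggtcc
Socs3 (chr11:117969317-117969616, minus strand): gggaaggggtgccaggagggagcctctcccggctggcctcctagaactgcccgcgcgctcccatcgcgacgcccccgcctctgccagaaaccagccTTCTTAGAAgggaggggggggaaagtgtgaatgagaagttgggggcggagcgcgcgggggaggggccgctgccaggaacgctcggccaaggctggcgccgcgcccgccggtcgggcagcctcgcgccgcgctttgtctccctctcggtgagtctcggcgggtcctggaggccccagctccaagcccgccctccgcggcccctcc
Foxp3 (chrX:7580233-7580532, plus strand): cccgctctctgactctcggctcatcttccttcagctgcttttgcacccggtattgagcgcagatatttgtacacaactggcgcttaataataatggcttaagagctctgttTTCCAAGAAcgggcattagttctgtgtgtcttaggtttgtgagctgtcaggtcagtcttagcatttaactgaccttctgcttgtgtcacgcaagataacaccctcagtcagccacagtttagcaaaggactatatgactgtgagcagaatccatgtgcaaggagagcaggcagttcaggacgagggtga
Tnfrsf9 (chr4:150927749-150928048, plus strand): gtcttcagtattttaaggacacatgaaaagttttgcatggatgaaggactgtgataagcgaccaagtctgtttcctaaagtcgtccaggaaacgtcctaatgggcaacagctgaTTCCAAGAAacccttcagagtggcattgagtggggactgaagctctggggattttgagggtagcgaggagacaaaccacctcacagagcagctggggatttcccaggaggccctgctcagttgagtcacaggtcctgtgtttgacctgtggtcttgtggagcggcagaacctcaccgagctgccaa
Il7r (chr15:9529827-9530126, minus strand): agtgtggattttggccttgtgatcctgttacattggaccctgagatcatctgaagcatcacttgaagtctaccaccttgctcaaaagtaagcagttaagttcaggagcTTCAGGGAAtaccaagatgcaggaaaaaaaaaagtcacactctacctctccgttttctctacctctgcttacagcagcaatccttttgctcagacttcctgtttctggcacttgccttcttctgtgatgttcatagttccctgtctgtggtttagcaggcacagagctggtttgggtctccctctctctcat
Tcf7 (chr11:52282546-52282845, minus strand): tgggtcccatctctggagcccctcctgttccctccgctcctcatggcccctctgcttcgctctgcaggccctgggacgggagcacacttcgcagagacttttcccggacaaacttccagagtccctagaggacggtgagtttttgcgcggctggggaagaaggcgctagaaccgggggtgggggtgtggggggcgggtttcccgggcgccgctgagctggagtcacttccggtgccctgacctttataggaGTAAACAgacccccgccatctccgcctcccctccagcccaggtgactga
*Cish* held 2 matches, separated by 2 bases, and each other window held 1. Such matches are letters in a window and not shown binding sites. Of 32851 promoter windows, 8.30% held TTCNNNGAA and 3.65% held TGTTTAC, counting both strands. Among the 9121 tested genes with a window, TTCNNNGAA was in 9.57% of those higher in tTregs, 7.12% of those lower and 8.38% of all. Of the 14 IL-2 and STAT5 response genes with a window, 3 held it, and the third was *Gzmb*. TGTTTAC was in 2.73% of the genes higher in tTregs, 3.95% of those lower and 3.26% of all. TGANTCA, the AP-1 site, was in 7.60%, 6.10% and 5.88%, and TGTGGT, the Runx core, in 15.8%, 17.4% and 15.5%. No window was at hand for *Lrrc32*, *Ikzf2* and *Socs2*.

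Resting tTregs and resting Tconvs differed over a large part of the genes expressed. A gene was called at an adjusted p below 0.05 (limma, Benjamini-Hochberg) and an absolute log2 fold change above 0.5, and 4441 of 11495 genes tested passed, 38.6% of them. Genes named below as higher or lower passed both thresholds, and their groups did not overlap unless this is said. In tTregs 2352 genes were higher (20.5%) and 2089 were lower (18.2%). Across every tested gene the median was -0.02 on the log2 scale. The libraries of both groups did not overlap for 4329 of the called genes, beside 58.5% of all genes tested.

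The 10 largest rises included genes of the Treg surface, and *Foxp3* was among them. *Lrrc32* encodes GARP, the receptor that holds latent TGF-β on the surface of Tregs, and stood at 5596, 5715 and 7271 in tTregs against 11.3, 5.63 and 5.27 in Tconvs, a log2 fold change of 9.59 ± 0.22 (SE, adjusted p = 5.78e-14). *Il2ra*, the α chain of the IL-2 receptor, was at 7315, 6550.2 and 6389.7 against 42.2, 38.5 and 38.6 (7.37 ± 0.10 on the log2 scale). *Tnfrsf9*, the costimulatory receptor 4-1BB, was at 9990.2, 6877 and 7593 against 35.0, 31.9 and 29.8. *Gpr83*, a G protein-coupled receptor known as a Treg marker, was at 12854, 10282 and 11311 against 59.7, 42.2 and 60.6. Each of these 4 genes was high in all tTreg libraries and close to the floor of detection or low in all Tconv libraries. *Lama5*, a laminin chain, was at 637, 622 and 772 in tTregs and at 0 in all 3 Tconv libraries, at least 219-fold higher when a Tconv library is set at the floor of 3 reads. *Hepacam2*, an adhesion molecule of the immunoglobulin family, was at 404, 323 and 284 and likewise at 0 in Tconvs, at least 109-fold higher. *Neb*, which encodes the large muscle protein nebulin, was at 1388, 1159 and 1121 against 3.09, 6.57 and 17.6 (7.20 ± 0.36 on the log2 scale, and 6.59 ± 0.37 with the length trend removed), and *Itih5* was at 5997, 5894 and 4799.7 against 49.4, 49.7 and 33.4. *Gbp2b*, an interferon-inducible GTPase with close paralogs among which reads may be split, was at 499, 398 and 326 against 1.03, 1.88 and 0, a ratio of 440.1 with a 95% counting interval of 150.2 to 2137.

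**Figure D1:**
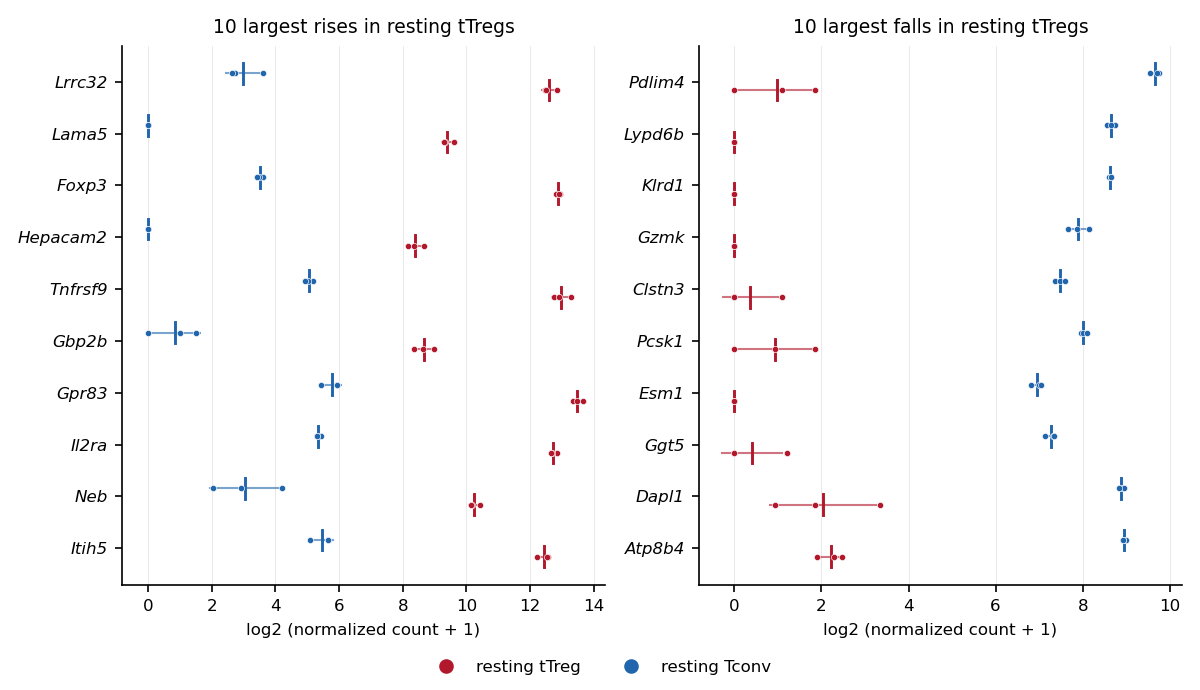
Values of the 10 genes with the largest rises (left) and the 10 with the largest falls (right) as log2 of the normalized count plus 1; each point is a library, red for resting tTregs and blue for resting Tconvs, with a tick at the mean and a line of 1 SD on either side (n = 3). The groups do not overlap for any of the 20 genes, a condition of the choice, and several genes are at 0 in every library of one group.

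The 10 largest falls left most of their genes with few or no reads in tTregs. *Pdlim4*, a PDZ and LIM domain protein of the actin cytoskeleton, was at 0, 2.60 and 1.14 in tTregs and 751, 856 and 830.3 in Tconvs, a ratio of 747 (95% counting interval 255 to 3625). *Dapl1*, a gene of naive T cells, was at 0.907, 2.60 and 9.11 against 470.0, 492 and 455, a log2 fold change of -6.85 ± 0.41, or -7.50 ± 0.26 without tTreg replicate 3 and -5.80 ± 0.24 with a pseudocount of 5. *Atp8b4*, a putative phospholipid flippase, was at 2.72, 3.89 and 4.56 against 509, 485 and 484. *Klrd1*, which encodes the NK cell receptor chain CD94, was at 0 in all tTreg libraries and at 389, 399.6 and 400.2 in Tconvs, at least 102-fold lower. *Gzmk*, granzyme K, was at 0 against 202, 232 and 283, at least 61.3-fold lower. *Lypd6b* was also at 0 in all tTreg libraries, against 426, 373 and 401 in Tconvs (at least 103-fold lower), and so was *Esm1*, against 112, 126 and 129.9 (at least 31.5-fold lower). The other three had up to 3 reads in all tTreg libraries together. *Pcsk1*, a prohormone protease, stood at 247, 254 and 273 in Tconvs, a ratio of 237 (counting interval 80.9 to 1153). *Clstn3* stood at 162, 177 and 191 in Tconvs (ratio 489, 87.4 to 19353) and *Ggt5* at 139, 158 and 161 (ratio 422, 75.3 to 16686).

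Transcription factors linked to Tregs were split. Of 33 in the list, 18 were higher, 6 lower and 9 not called, with a median log2 fold change of 0.67. *Ikzf2*, which encodes Helios, was at 10382, 9218 and 8609.6 in tTregs against 188, 199.8 and 196 in Tconvs (5.58 ± 0.13 on the log2 scale, adjusted p = 6.95e-14). *Ikzf4*, encoding the related Eos, a corepressor of Foxp3, was at 2489, 2262 and 2107 against 145, 131 and 125. *Gata1*, better known from erythroid cells, was at 1113, 1251 and 911 against 20.6, 15.0 and 21.9. Of 8 erythroid and platelet markers, 4 were at 0 in all 6 libraries, among them *Hbb-bs*. The 8 together had 6.49 to 13.6 normalized counts in tTregs and 0.878 to 6.17 in Tconvs. *Nr4a1*, an orphan receptor induced by T cell receptor signals, was at 288, 295 and 308 against 11.3, 11.3 and 9.65. *Nfil3* was at 264, 241 and 204 against 13.4, 15.9 and 14.9. All 3 libraries of tTregs exceeded those of Tconvs for each of these 5 genes. Lower in all tTreg libraries was *Id2*, an inhibitor of E proteins, at 122, 97.3 and 92.3 against 845, 800.1 and 831 (-2.99 ± 0.13 on the log2 scale). *Satb1*, a chromatin organiser, was at 1957, 2948 and 2524 against 7584, 7202 and 7509. *Lef1* was at 2283, 3123 and 2920.4 against 9057, 9504 and 9342. *Tbx21*, which encodes the Th1 factor T-bet, was low in both groups, at 6.35, 1.30 and 4.56 against 22.6, 23.4 and 15.8. *Foxo1* and *Runx1*, which take part in *Foxp3* expression, were not called. *Foxo1* was at 1799.7, 1489.6 and 1398 against 1464, 1512 and 1514 and stayed within a narrow range. *Runx1* was at 438, 614 and 1146 against 804, 749 and 655, and its tTreg libraries lay on both sides of the Tconv libraries. *Prdm1*, which encodes Blimp-1 of effector Tregs, was at 207, 139 and 183 against 129.6, 123 and 128 and missed the fold threshold at 0.45 ± 0.17 on the log2 scale. Without tTreg replicate 2, the library nearest to the Tconvs, it was called, at 0.61 ± 0.17 (adjusted p = 0.00918).

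Genes of suppressive function were higher in most cases. Of 21 tested among 23 genes, 18 were higher and 2 lower, with a median log2 fold change of 2.60. *Itgb8*, the integrin chain that frees active TGF-β from its latent complex, was at 956, 732 and 743 against 5.14, 8.44 and 15.8 (6.34 ± 0.29 on the log2 scale). *Ctla4*, which strips CD80 and CD86 from antigen-presenting cells, was at 3291, 2677 and 2722 against 237, 209 and 218 (3.70 ± 0.16 on the log2 scale, adjusted p = 7.78e-11). *Gzmb*, granzyme B, was at 791, 572 and 575 against 13.4, 24.4 and 27.2. *Ebi3*, a subunit of IL-35 and IL-27, was at 75.3, 79.2 and 114 against 6.17, 1.88 and 4.39, with 23.4% of its exon bases shared with another gene, and its IL-35 partner *Il12a* was at 0 in all 6 libraries. *Havcr2*, the inhibitory receptor TIM-3, was at 45.4, 58.4 and 41.0 against 4.11, 1.88 and 4.39. The lower members were granule genes of cytotoxic cells. *Prf1*, perforin, was at 73.5, 62.3 and 58.1 against 227, 248 and 226 and *Gzma*, granzyme A, at 0 against 13.4, 15.9 and 16.7 (at least 3.94-fold lower). *Lag3* was not called, at 17.2, 64.9 and 87.7 against 37.0, 48.8 and 50.9, with tTreg replicate 1 the lowest of the 6 libraries. Without this replicate it was called higher, at 0.73 ± 0.18 on the log2 scale (adjusted p = 0.00335). The 3 members that follow were singled out after their values were seen. The adenosine-producing ectoenzyme CD73, *Nt5e*, was at 7474, 5737 and 6402 against 842, 794 and 855. Neuropilin-1, *Nrp1*, was at 4154, 3602 and 4137 against 649, 671 and 641. *Il10*, the inhibitory cytokine, was at 10.9, 2.60 and 10.3 against 3.09, 2.81 and 0, so that the groups overlapped and the values lay near the floor of detection. Its log2 fold change of 1.65 ± 0.52 passed (adjusted p = 0.0154), and the call was lost without tTreg replicate 1 (0.0623), tTreg replicate 3 (0.0613) or Tconv replicate 3 (adjusted p = 0.0839). The call was lost as well when the 6 libraries were fitted alone (adjusted p = 0.0993) and after quantile normalization (1.10 ± 0.55, adjusted p = 0.113).

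Receptors for IL-2 and the genes that IL-2 induces were higher in most cases. The IL-2 and STAT5 response list held 13 higher and 2 lower genes of 17 tested, and its median log2 fold change was 1.73. *Il2rb*, the β chain of the IL-2 receptor, was at 16327, 15611 and 14788 in tTregs against 965, 916 and 937 in Tconvs (4.05 ± 0.09 on the log2 scale, adjusted p = 4.85e-14). *Il2rg*, the γ chain shared with other cytokine receptors and singled out here after its values were seen, was lower, at 5453, 4016 and 4558 against 7221, 7664 and 7919 (-0.71 ± 0.17 on the log2 scale). It shares 30.5% of its exon bases with another gene, and quantile normalization left it at -0.38 ± 0.18, not called. *Cish*, whose promoter is printed above, encodes a feedback inhibitor of STAT5 signaling and was at 6032, 5677 and 5859 against 139.9, 172 and 156 (5.23 ± 0.07 on the log2 scale, adjusted p = 2.66e-16). *Socs2*, of the same inhibitor family, was at 3549.6, 3293 and 4203 against 61.7, 98.5 and 73.7. The receptor kinases differed in direction. *Jak3* was at 791, 1222 and 1109 against 246, 203 and 253. *Jak1* was lower, at 5993, 8826 and 12105 against 21531, 21046 and 21469.6. *Osm*, a STAT5-induced cytokine, was at 729, 739.6 and 792 against 186, 214 and 167. The kinase gene *Pim2* was lower, at 215, 240.1 and 286 against 802, 826 and 931. *Socs3*, singled out for its spread, was at 483, 2765 and 2595 against 402, 397 and 403: tTreg replicate 1 stood near the Tconv libraries, the log2 fold change was 1.92 ± 0.45, and without this library it was 2.74 ± 0.16 (adjusted p = 2.41e-09).

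**Figure D2:**
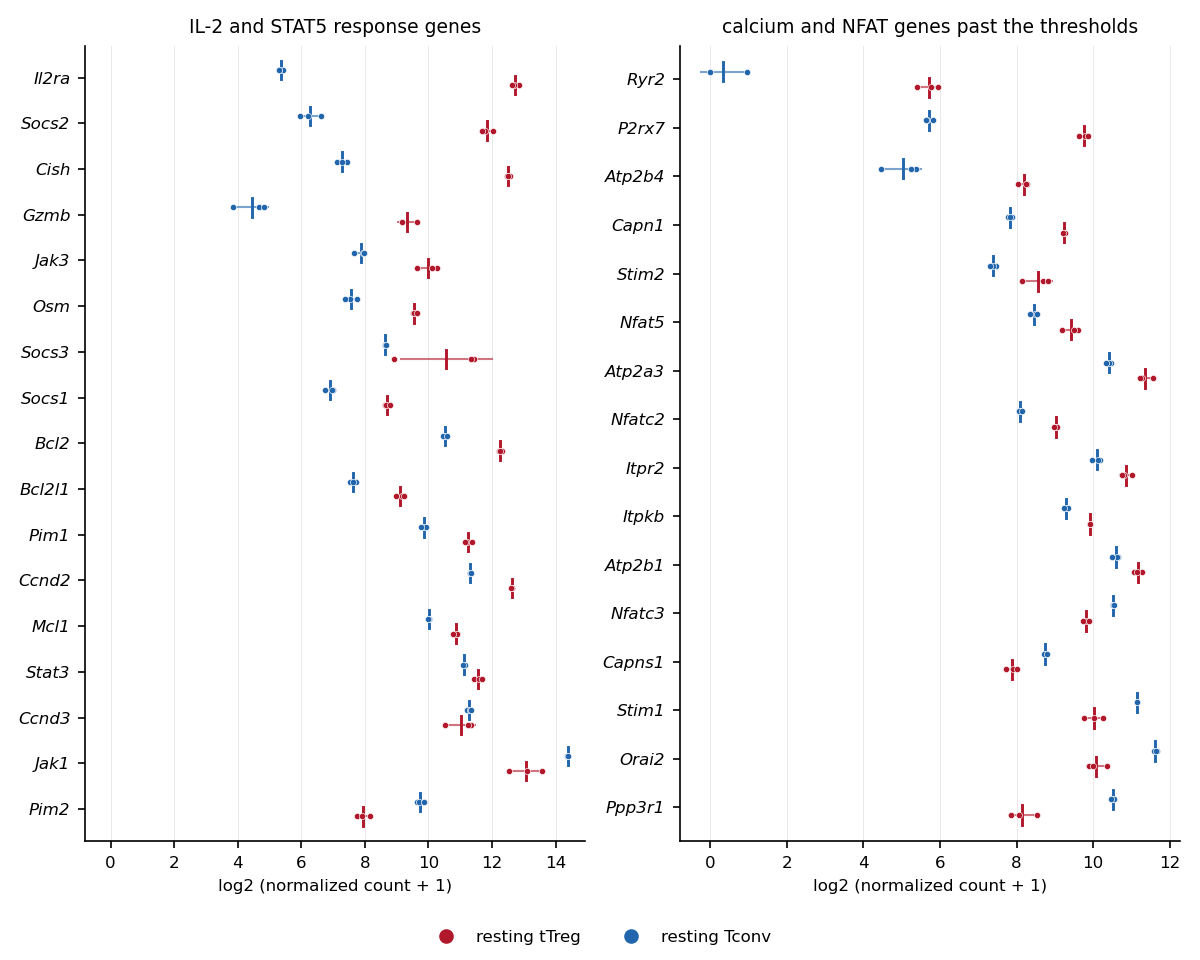
Values of the 17 IL-2 and STAT5 response genes tested (left) and of the 16 calcium and NFAT genes past the thresholds (right), as log2 of the normalized count plus 1; points are libraries, red for resting tTregs and blue for resting Tconvs, with a tick at the mean and a line of 1 SD on either side (n = 3). *Socs3* shows the single low tTreg library, and *Ryr2* is near 0 in Tconvs.

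Cytokine receptors moved in both directions. Of 27 tested, 15 were higher and 8 lower in tTregs (median 0.83). *Il1rl1*, the IL-33 receptor ST2, was at 279, 313 and 271 against 5.14, 11.3 and 5.27, and *Il1r2*, the decoy receptor of IL-1, at 70.8, 54.5 and 63.8 against 4.11, 6.57 and 4.39. *Il12rb1*, a chain of the IL-12 and IL-23 receptors, was at 206, 236 and 214 against 38.1, 36.6 and 36.9. *Il4ra*, the IL-4 receptor α chain, was at 8611, 8303 and 7856 against 2398, 2502 and 2494. On the lower side the IL-7 receptor led. *Il7r*, the IL-7 receptor α chain on which naive cells depend, was at 1753, 1643 and 1267 in tTregs against 20644, 20013 and 21395 in Tconvs, a log2 fold change of -3.75 ± 0.12 (SE, adjusted p = 3.32e-12). *Il6ra* was at 434, 461 and 434 against 2362, 2365 and 2214. *Il17ra* was at 1199, 1279 and 1675 against 4955, 5384 and 5398. *Tgfbr3*, a coreceptor for TGF-β, was at 127, 196 and 153 against 779.6, 728 and 768. For each of these 4 receptors all Tconv libraries exceeded all tTreg libraries. *Ifnar2* was not called: it stood at 284, 1196 and 1182 against 523, 542 and 546, with tTreg replicate 1 below and the other tTreg libraries above every Tconv library, and without replicate 1 the log2 fold change was 1.15 ± 0.12 (adjusted p = 1.17e-06).

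Costimulatory families were largely higher in tTregs. Among the TNF receptors, 8 of 14 tested were higher and 2 lower (median 0.77), and with the length trend removed 1 was lower. *Tnfrsf4*, which encodes OX40, was at 6452, 5345 and 5173 against 204, 208 and 219, and *Tnfrsf18*, which encodes GITR, at 11459, 8533 and 9113 against 1139.5, 1109 and 1269, with 27.2% of its exon bases shared with another gene. *Tnfrsf8*, CD30, was at 250.4, 166 and 173 against 3.09, 1.88 and 0.878, and *Tnfrsf1b*, the TNF receptor TNFR2, at 2759, 2430.4 and 2665 against 429, 471 and 452. *Tnfrsf26* was the most reduced receptor of the family, at 2719.6, 2264 and 1932 against 14203, 13852 and 14691. The TNF ligands were mixed, 5 higher and 3 lower of 11 (median 0.46). *Tnf* was at 489, 545 and 493 against 37.0, 25.3 and 43.0 and *Lta*, lymphotoxin α, at 680.3, 719 and 663 against 99.8, 109.7 and 114. *Cd40lg*, the helper ligand CD40L, was at 55.3, 54.5 and 43.3 against 1001, 1043 and 1088 (-4.34 ± 0.16 on the log2 scale), and *Fasl* at 28.1, 19.5 and 20.5 against 239.6, 183 and 217. *Ltb*, lymphotoxin β, was at 606, 9662 and 11497 against 9757, 11386 and 7835 and was not called (-1.23 ± 0.78 on the log2 scale). Its tTreg replicate 1 was the lowest of the 6 libraries by a factor of over 10, and without it the log2 fold change was 0.14 ± 0.32 (adjusted p = 0.741). Without tTreg replicate 3 instead, it was -1.98 ± 0.77, called lower (adjusted p = 0.0463). In the CD28 and B7 family 8 of 10 were higher and 2 lower (median 1.94). Both ligands of CD28 and CTLA-4, more often seen on antigen-presenting cells, were higher. *Cd80* was at 199.6, 231 and 128 against 12.3, 15.9 and 18.4, and *Cd86* was at 251, 205 and 188 against 23.7, 28.1 and 25.5. *Pdcd1*, which encodes PD-1, was at 2748, 2020.3 and 2002 against 527, 594 and 545. *Icos*, the inducible costimulator, was at 4868, 4278 and 3747 against 1149, 1136 and 1219. *Cd28* itself was lower, at 4653, 4249.6 and 3652 against 9610.1, 8810.1 and 9501 (-1.16 ± 0.12 on the log2 scale).

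Among genes of T cell receptor signaling more were lower than higher, whereas most genes that respond to the receptor were higher. In the signaling list 13 of 33 genes were lower and 2 higher (median -0.38), and after quantile normalization 7 were lower and 4 higher. *Cd3d*, a CD3 chain, was at 4693, 4157 and 3908 in tTregs against 10701, 11398 and 11464 in Tconvs, and *Lat*, the adaptor that gathers phospholipase C, at 2604, 2289 and 2564 against 7420.4, 7928 and 7827 (-1.64 ± 0.07 on the log2 scale). *Lck*, the first kinase of the pathway, was at 7454, 7442 and 5709.8 against 13377, 13829 and 14300.5, and *Themis*, a regulator of selection in the thymus, at 659, 590.4 and 501 against 2789, 2578 and 2605. *Cd3e*, another CD3 chain, was at 5103, 4878 and 4521 against 3489.6, 3463 and 3373 and missed the fold threshold at 0.49 ± 0.08 on the log2 scale. Without tTreg replicate 3 it passed, at 0.54 ± 0.09 (adjusted p = 1.91e-04), and it passed as well after quantile normalization (0.77 ± 0.08) and with the length trend removed (0.56 ± 0.08). *Carmil2*, an adaptor of CD28 signaling, was at 374, 366 and 394 against 179, 171 and 156, and 22.0% of its exon bases are shared with another gene. In the response list 14 of 19 genes were higher and 0 lower (median 1.07), against 20.5% and 18.2% of all genes tested. *Dusp4*, a MAP kinase phosphatase, was at 194, 219 and 432 against 4.11, 7.50 and 8.78 (5.14 ± 0.35 on the log2 scale). *Nr4a3* was at 51.7, 63.6 and 53.5 against 7.20, 9.38 and 5.27. *Myc* was at 2764, 2737 and 3640.2 against 363, 384 and 393, and *Irf4*, a factor of activated and effector cells, at 266, 210.2 and 173 against 28.8, 33.8 and 37.7. The immediate early genes *Egr1* and *Egr3* did not follow. *Egr1* was at 34.5, 28.5 and 28.5 against 54.5, 51.6 and 41.3, without overlap, and was not called (-0.67 ± 0.31 on the log2 scale, adjusted p = 0.0871). It was called lower when the 6 libraries were fitted alone (adjusted p = 0.0255) and after quantile normalization (-0.95 ± 0.31, adjusted p = 0.0216), the latter giving the list 1 lower gene. *Egr3* was too low to be tested.

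Calcium signaling genes moved in both directions. Of 35 tested, 11 were higher, 5 lower and 19 not called (median 0.16), beside 20.5% higher and 18.2% lower of all genes tested. With the transcript length trend removed, 8 were higher and 7 lower, close to the shares of all genes. The counts thus do not set the list apart, and the values below are those of single genes. At the plasma membrane, *Orai2*, a pore subunit of the store-operated channel, was at 952, 1011 and 1324 in tTregs against 3077, 3241 and 3169 in Tconvs (-1.54 ± 0.12 on the log2 scale, adjusted p = 5.92e-08). *Orai1*, the principal pore gene, was at 122, 81.7 and 107 against 96.7, 116 and 118 and was not called. Of the sensors of the endoplasmic reticulum store, *Stim1* was lower, at 874, 1039 and 1213 against 2255, 2281 and 2251 (-1.13 ± 0.12 on the log2 scale), and *Stim2* higher, at 412, 453 and 284 against 176, 167 and 157 (1.17 ± 0.16). Every tTreg library was below every Tconv library for *Stim1* and above for *Stim2*. *Ppp3r1*, the regulatory subunit of calcineurin, the phosphatase that activates NFAT, was at 264, 229.7 and 367 against 1492, 1488 and 1409 (-2.37 ± 0.17 on the log2 scale), whereas the catalytic subunits *Ppp3ca* and *Ppp3cb* were not called. Among the NFAT genes, *Nfat5* was at 779, 723 and 581 against 353, 367 and 326, and *Nfatc1* was not called, at 845, 993 and 882 against 1039.8, 1035 and 1004. *Nfatc2* and *Nfatc3*, singled out after their values were seen, went opposite ways. *Nfatc2* was at 519.8, 535 and 506 against 266, 265 and 279 and *Nfatc3* at 898, 943 and 849.7 against 1456, 1474 and 1485.

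The largest rises of the calcium list were in channels and a pump. *Ryr2*, an intracellular release channel, was at 60.8, 53.2 and 41.0 in tTregs and at 0, 0.938 and 0 in Tconvs, that is, 1 read in all Tconv libraries together, a ratio of 166 with a 95% counting interval of 29.4 to 6615. *Ryr3* was not called, at 28.1, 35.0 and 11.4 against 13.4, 12.2 and 14.0. *P2rx7*, the ATP-gated cation channel, was at 884, 938 and 792 against 55.5, 49.7 and 48.3 (4.06 ± 0.11 on the log2 scale). *Atp2b4*, a plasma membrane calcium pump, was at 310.2, 304 and 261 against 40.1, 36.6 and 21.1. Of the calpains, calcium-dependent proteases, *Capn1* was higher, at 608, 615 and 597 against 216, 233 and 226, and the shared small subunit *Capns1* lower, at 238, 210.2 and 256 against 426, 418 and 446. *Capn2*, which shares 27.1% of its exon bases with another gene, was not called, and its tTreg libraries spread over both sides of the Tconv libraries, at 459.9, 836 and 1628 against 823, 778 and 834.

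Most genes of the naive and quiescence program were lower. Of 30 genes 21 were lower and 1 was higher, with a median of -1.28. *Tcf7*, whose promoter window is printed above, was at 1277, 1242 and 1144 in tTregs against 15701, 16434 and 16500 in Tconvs (-3.73 ± 0.07 on the log2 scale, adjusted p = 9.00e-15). *Igfbp4*, a gene of naive T cells, was at 14.5, 32.4 and 34.2 against 268, 297 and 248. The exception was *Id3*, an inhibitor of E proteins, at 1579, 1447 and 1687 against 330.1, 293 and 313, so that *Id2* and *Id3* went opposite ways. *Bach2*, a repressor of effector programs, was at 989, 963 and 817 against 1173, 1121 and 1108 and missed the fold threshold (-0.30 ± 0.09 on the log2 scale). With the length trend removed it was called lower, at -0.65 ± 0.07 (adjusted p = 2.06e-06), and 25 of the list were lower. Homing and chemokine receptors were divided evenly, 8 higher and 8 lower of 20 (median 0.20). *Ccr8* was at 84.4, 83.0 and 79.7 against 1.03, 3.75 and 4.39, *Ccr4* at 665, 669.6 and 703 against 81.2, 62.8 and 61.4, and *Ccr6* at 236, 223 and 173 against 13.4, 19.7 and 7.90. *Gpr183*, the oxysterol receptor that guides T cells to the follicle border, was at 499.8, 374 and 443 against 4357, 4246 and 4685, and *Cxcr6* at 44.4, 31.1 and 30.8 against 772, 702 and 883. Integrins and adhesion genes were higher in 10 and lower in 3 of 23 cases (median 0.04), and with the length trend removed 5 were lower. *Itgae*, CD103, was at 285, 180.4 and 229 against 6.17, 8.44 and 7.90 and *Cd83* at 863, 741 and 1007 against 20.6, 17.8 and 24.6. *Itgal* and *Itgb2*, which form the integrin LFA-1, were not called. *Itgal* was at 2088, 2055 and 1738 against 2272, 2479.9 and 2276 and *Itgb2* at 2569.9, 2565 and 2311 against 2346, 2471 and 2401.

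Many effector cytokine genes had few or no reads in either resting group. Of the list, 9 of 20 genes could be tested, 3 of them higher and 4 lower in tTregs (median -0.98, and 0.00 with the 3 genes that are at 0 in one group set at their bounds), and 6 genes were at 0 in all 6 libraries, among them *Il17a* and *Il13*. Most of the summed level came from *Il16*, a chemoattractant of CD4+ cells made by resting T cells, which was lower in tTregs at 4824, 4000.5 and 3952 against 8247, 8522 and 8510.2. *Ccl5*, a chemokine of effector cells, was at 24.5, 32.4 and 38.7 against 751, 799 and 772. *Lif* was at 17.2, 18.2 and 13.7 against 0, 1.88 and 0, a ratio of 26.0 with a counting interval of 6.79 to 221. *Csf1*, the macrophage growth factor, was at 14.5, 29.8 and 38.7 against 3.09, 0 and 2.63. The log2 fold change of *Csf1* was 3.44 ± 0.49, and 2.79 ± 0.40 without Tconv replicate 2, which held none of its reads, and it ran from 2.20 ± 0.29 to 4.75 ± 0.96 with pseudocounts of 5 and 0.1. *Il2* itself was below the filter, at 1.81, 3.89 and 1.14 against 7.20, 3.75 and 5.27, and *Ifng* was not called, at 1.81, 0 and 5.69 against 1.03, 5.63 and 7.90.

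**Figure D3:**
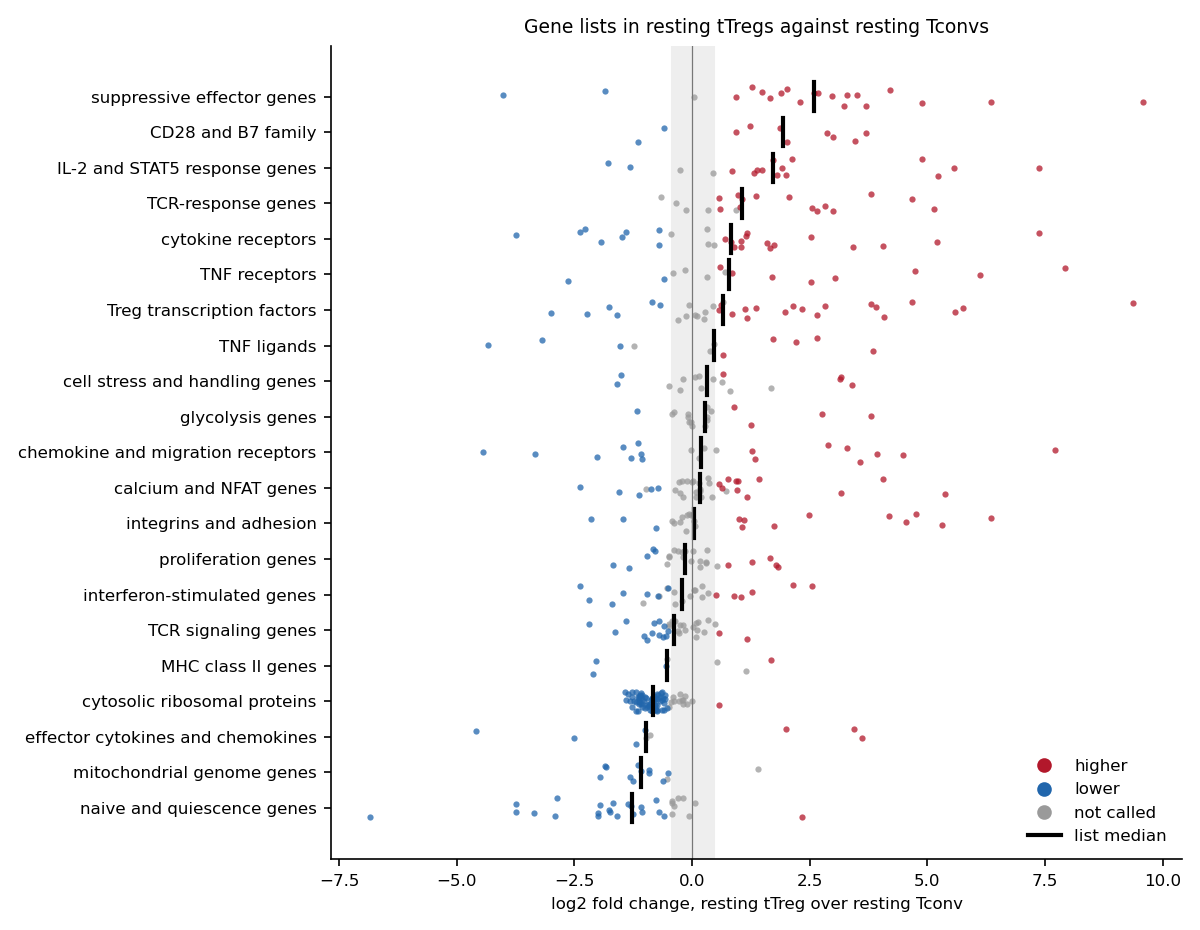
Log2 fold change (resting tTreg over resting Tconv) of every tested gene of 21 lists, 1 row for each list; red points were higher, blue points lower and grey points not called, black ticks are list medians, and the grey band spans the range between the quartiles of all genes tested, from -0.43 to 0.46. Suppressive effector genes have the highest median and naive and quiescence genes the lowest.

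Genes of translation and of the mitochondrial genome were lower as blocks. Of 80 cytosolic ribosomal protein genes 67 were lower and 1, *Rps27l*, was higher, with a median of -0.82. *Rps19*, the largest fall of the list, was at 11198, 12487 and 10973 in tTregs against 30003, 31454 and 31803 in Tconvs. *Rps27l* stood just inside the threshold at 0.57 ± 0.12 on the log2 scale and fell outside it without tTreg replicate 2 (0.49 ± 0.13) or without Tconv replicate 2 (0.50 ± 0.13). Together the ribosomal protein genes took 9.65 to 10.9% of normalized counts in tTregs and 15.5 to 16.0% in Tconvs. This block depended on scaling: 20 genes were lower after quantile normalization (median -0.30), and 54 after the length trend was removed (median -0.64). The value for *Rps19* went from -1.43 ± 0.10 to -0.83 ± 0.07 after quantile normalization. Of 13 genes of the mitochondrial genome 11 were lower and 0 higher (median -1.08). *mt-Atp6*, a subunit of ATP synthase, was at 24131, 18327 and 23430.2 against 88099, 79491 and 88334 (-1.97 ± 0.21 on the log2 scale, and -1.20 ± 0.23 after quantile normalization). Their share was 1.80 to 2.08% in tTregs and 3.95 to 4.22% in Tconvs.

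Cycling, glycolysis and interferon genes were in part higher and in part lower, beside 20.5% higher and 18.2% lower of all genes tested. Of 27 proliferation genes 5 were higher and 5 lower (median -0.14, and -0.02 with *Hmmr*, which is at 0 in tTregs, at its bound). This balance depended on the method, with 4 higher and 8 lower after quantile normalization and 3 lower with edgeR or DESeq2. *Mki67*, the proliferation antigen Ki-67, was at 133, 118 and 94.5 against 44.2, 28.1 and 36.9 and *Top2a* at 159.7, 126 and 146 against 33.9, 42.2 and 43.0, and both were higher in tTregs. *Spc24*, a kinetochore gene, was lower, at 7.26, 1.30 and 2.28 against 9.26, 15.0 and 11.4. *Ccna2*, cyclin A, was lower at 4.54, 2.60 and 4.56 against 16.5, 10.3 and 7.90 (-1.33 ± 0.51 on the log2 scale, adjusted p = 0.04), and this call was lost without tTreg replicate 2 (adjusted p = 0.128), tTreg replicate 3 (0.054), Tconv replicate 1 (0.145) or Tconv replicate 2 (0.0721). The call was also lost with edgeR (adjusted p = 0.214), with DESeq2 (0.0634), with reads thinned to the shallowest library, with a pseudocount of 5 and with no filter. In resting iTregs cycling genes stood at other levels, *Mki67* at 3849.9 ± 381 and *Top2a* at 11457 ± 339.6 (SD, n = 3). Glycolysis genes were higher in 4 and lower in 1 of 17 cases (median 0.28). *Slc16a3*, a lactate exporter, was at 190.5, 257 and 316 against 15.4, 18.8 and 16.7, and *Hk2*, an inducible hexokinase, at 49.0, 76.6 and 55.8 against 4.11, 13.1 and 8.78. Of 25 interferon-stimulated genes 6 were higher and 7 lower (median -0.22). Guanylate-binding protein genes were among the higher ones, with *Gbp7* at 7428, 5718 and 5763 against 1118, 1019 and 1059 and *Gbp2* at 3185, 2756 and 2541 against 618, 680.0 and 621. Antiviral *Ifit* genes were among the lower ones, with *Ifit2* at 539, 369 and 383 against 2071, 1755 and 1966 and *Ifit3* at 55.3, 37.6 and 21.6 against 197, 187 and 187. The MHC class II genes took a summed level of 268 to 298 in tTregs and 372 to 384 in Tconvs. Of 7, 1 was higher and 3 were lower (median -0.53, from -2.11 to 1.67). Only 3 of the 7 reached 10 normalized counts in any of the 6 libraries, so that calls and median rest in part on genes near the floor. *Cd74*, the invariant chain, was the only higher member, at 33.6, 31.1 and 21.6 against 9.26, 7.50 and 7.90.

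Genes that respond to handling stress were checked because both groups had been sorted. Of 16 tested, 4 were higher and 2 lower (median 0.31), beside 20.5% and 18.2% of all genes tested. Without tTreg replicate 1, 7 were higher. *Jun* was at 526, 719 and 1874 in tTregs against 91.5, 79.7 and 79.9 in Tconvs and *Fos* at 90.7, 55.8 and 66.1 against 4.11, 10.3 and 7.90, whereas *Dusp1* was lower, at 176, 158 and 279 against 594, 688 and 446. *Hspa1a*, the inducible heat shock protein, was not called, at 2.72, 15.6 and 10.3 against 2.06, 0.938 and 2.63, and without tTreg replicate 1 it was called higher at 2.30 ± 0.82 on the log2 scale (adjusted p = 0.0305). *Junb* was not called, at 566, 3763 and 2993 against 1334, 1356 and 938, and without tTreg replicate 1 it was called higher at 1.49 ± 0.27 (adjusted p = 3.49e-04). The summed level of the list was 14126 to 18798 normalized counts in tTregs and 12896 to 13679 in Tconvs. The part of handling in the differences described was not tested.

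Markers of NK and innate-like T cells were lower in the tTreg libraries. Of 6 NK and innate-like T cell genes tested, 6 were lower in tTregs, beside 18.2% of all genes tested. Of these 6, 4 had no reads in resting tTregs, passed the filter only through other groups and could not have been called higher. The count of 6 is therefore no separate support. The summed level of the list was 47.8 to 66.2 in tTregs against 728 to 782 in Tconvs. *Klrk1*, the receptor NKG2D, was at 0 in tTregs and 75.1, 85.4 and 74.6 in Tconvs (at least 20.1-fold lower), and *Klrb1c*, NK1.1, at 0 and 30.9, 20.6 and 16.7 (at least 5.84-fold lower), while *Ncr1*, which is restricted to NK and innate cells, was at 0, 5.63 and 2.63 in Tconvs. Memory and effector CD4 markers were higher in 2 and lower in 5 of 10 cases. Their log2 fold changes ran from -7.89 to 0.98 (median -0.81), with a summed level of 2939 to 3150.4 against 4335 to 4543. *Cd44*, the adhesion receptor by which memory cells are gated, was at 623, 522 and 600.2 against 802, 763 and 765 and was not called, but was called lower with the length trend removed, at -0.60 ± 0.15 on the log2 scale (adjusted p = 0.0049). *Gzmk*, *Ccl5* and *Klrd1* among the reduced genes are markers of these cells, while 2 memory and effector markers were higher in tTregs. The part of such cells among Tconvs in these differences was not tested. *Cd8a* was at 8.16, 11.7 and 9.11 in tTregs and 3.09, 3.75 and 0.878 in Tconvs, and *Cd8b1*, the only CD8 marker tested, was lower in tTregs at 149.7, 166 and 148 against 220.1, 233 and 234 (-0.57 ± 0.15 on the log2 scale), a call that ended with the length trend removed (-0.39 ± 0.15). Follicular T cell markers were divided, 2 higher and 2 lower of 5 (median 0.52), and *Cxcr5* was not called, at 185, 256 and 156 against 143, 116 and 151.

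Most markers of B, myeloid and erythroid cells were too low to be tested. The B cell genes *Ms4a1* and *Pax5* were at 0 in all 6 libraries, and of 3 B cell genes tested 2 were higher and 1 lower in tTregs (summed level 132 to 145 against 27.2 to 37.0). This sum came mostly from *Cd79b*, a chain of the B cell receptor, at 126, 122 and 125 against 9.26, 9.38 and 5.27. Of 3 myeloid genes tested 0 were higher and 2 lower, with *Itgax*, *S100a8* and *S100a9* at 0 throughout, and a summed level of 781 to 1015 against 891 to 961, most of it *Cst3*, a gene of many cell types, which was not called. Of the erythroid and platelet genes 1 was tested and not called, and their summed level was at most 13.6 normalized counts in tTregs and 6.17 in Tconvs.

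The same contrast in activated cells, from 6 other libraries, showed which differences of resting cells were also found after stimulation. Activated tTregs and activated Tconvs differed in 5535 genes (48.2% of those tested), 2942 higher (25.6%) and 2593 lower (22.6%). Of the 2352 genes higher in resting tTregs, 1420 were higher in activated tTregs as well (60.4% of the resting list and 48.3% of the activated one), and 208 were lower. Of the 2089 genes lower in resting tTregs, 988 were lower (47.3% of the resting and 38.1% of the activated list) and 174 were higher. The Treg markers differed in both states. *Foxp3* was at 7312 ± 581 in activated tTregs and 33.8 ± 2.46 in activated Tconvs (SD, n = 3), and *Lrrc32* at 5679.6 ± 781 and 90.9 ± 12.8. *Ikzf2*, at 6716 ± 959 and 138 ± 15.3, had almost the same log2 fold change as in resting cells, 5.59 ± 0.13 (SE). The IL-2 response genes had smaller log2 fold changes in activated cells, where 4 of 17 were higher and 4 lower (median 0.25). *Cish* was at 8197 ± 206 in activated tTregs and 6845 ± 127 in activated Tconvs and was not called, and the difference from the resting contrast was -4.97 ± 0.10 on the log2 scale (SE, adjusted p = 8.55e-14). *Il2ra* was at 6489 ± 706 and 4351 ± 84.2, with a difference of -6.80 ± 0.14 (adjusted p = 8.55e-14). *Il7r*, so much lower in resting tTregs, was at 820.0 ± 72.9 and 649 ± 42.0 and was not called, with a difference of 4.08 ± 0.17 (adjusted p = 2.42e-10). *Tcf7* was lower in activated tTregs too, at 1110.2 ± 60.0 against 3436 ± 111. Opposite calls in both states were found for 382 genes, among them *Irf4*, *Stim1* and *Orai2*: in activated cells *Stim1* was at 1123 ± 134 in tTregs and 725 ± 60.2 in Tconvs, and *Orai2* at 1110.5 ± 159.9 and 670.1 ± 7.87, each higher in tTregs.

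**Figure D4:**
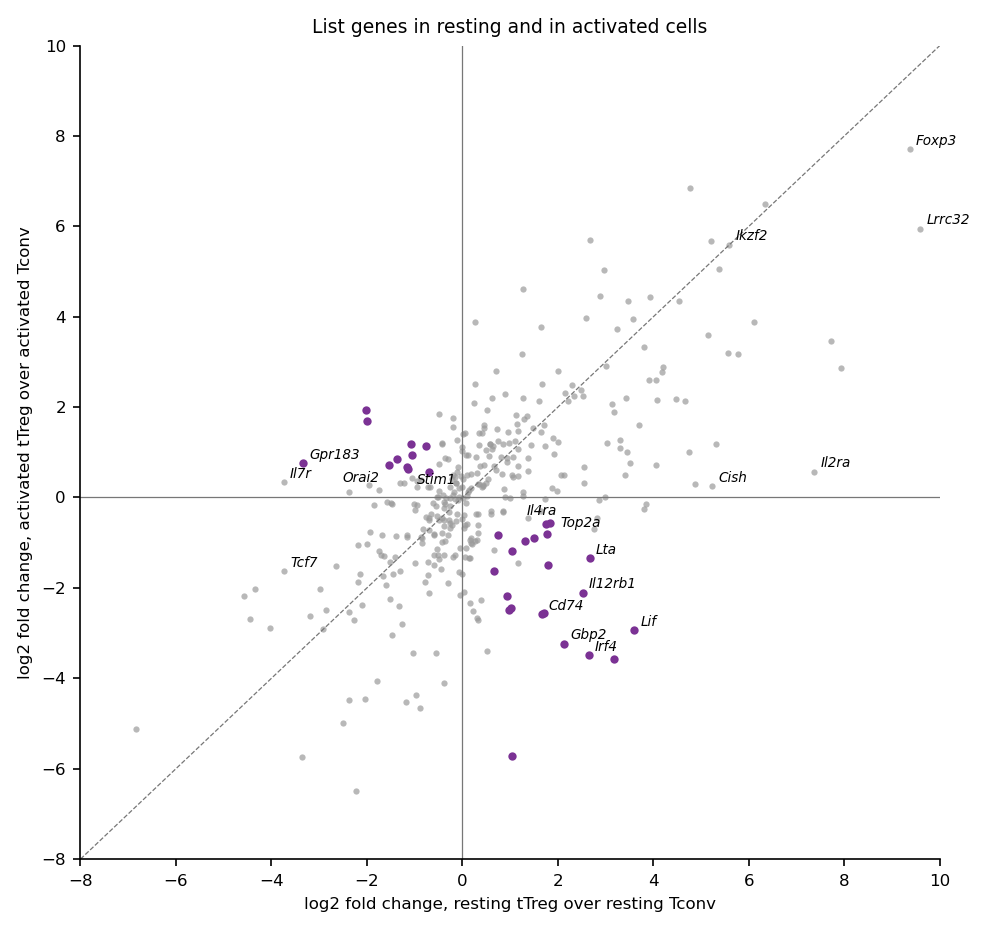
Log2 fold change of tTregs over Tconvs in resting cells (horizontal) and activated cells (vertical) for 371 tested genes of the lists other than ribosomal protein and mitochondrial genes; each point is a gene, the dashed line marks equal values, and purple points are the 32 genes called in opposite directions. *Foxp3*, *Lrrc32* and *Ikzf2* lie far to the upper right, and *Irf4* and *Gbp2* at the lower right.

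Levels in resting iTregs, given as values only since no comparison with them was made here, lay between both groups for some genes and outside them for others. *Foxp3* was at 1280.0 ± 88.4 (SD, n = 3), *Lrrc32* at 1471 ± 216 and *Gpr83* at 4361 ± 217, each between the levels of resting Tconvs and tTregs. *Ikzf2* and *Itgb8* were at 167 ± 24.1 and 6.89 ± 1.55, within or near the range of resting Tconvs, and *Ryr2* at 2.47 ± 2.67. *Il2ra* was at 11559.9 ± 1518 and *Gzmb* at 9135 ± 664, above the tTreg libraries. *Tcf7* was at 709 ± 39.8 and *Il7r* at 1119.6 ± 153, means below every resting tTreg library, and *Id2* was at 1829.8 ± 195, above the Tconv libraries.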

How the data were processed

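Libraries had been made by SMART-seq2, which copies polyadenylated RNA and keeps no strand. The authors trimmed reads with cutadapt 1.18, aligned them to mm10 with STAR 2.5.3 and counted them on GENCODE M23 genes with RSEM 1.3.0. They deposited a normalized signal, gene counts divided by a size factor for each of 24 libraries. Whole reads were recovered in 100% of values (within 0.01 read) and used for depth and count tests. A gene was tested where 3 or more of the 15 libraries from 5 groups reached 10 normalized counts, which 11495 of 21950 genes did. limma 3.58.1 (R 4.3.3) was run on log2(normalized count + 1) with all 15 libraries, so that every group contributes to the variance estimate, followed by Benjamini-Hochberg adjustment. Since fold changes are on the log2(normalized count + 1) scale, those of low genes are understated. The paper's methods give the same thresholds for DESeq2. The code was tested on simulated reads. Counting intervals and floors cover counting error only.

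The members and lists were chosen with earlier results of these data known. Named genes were, by rule, *Foxp3*, the 10 largest rises and 10 largest falls among called genes without overlap and with a mean of at least 100, and of each list the up to 6 largest rises and 4 largest falls, or members not called. Others are marked in the text as singled out after their values were seen. Alternatives were other scalings, pseudocounts, filters, samples in the fit, weights, thinning, thresholds, a replicate block and each library left out. Added after the data were examined were edgeR 4.0.16 and DESeq2 1.42.0 on recovered reads and a fit with each library's trend against transcript length (GENCODE M21, 99.3% of tested genes matched) removed. Positions are from GENCODE M21 on GRCm38, and promoters from RefSeq, with a window for 9121 of the tested genes. The motifs were chosen after the data were examined. Chromatin data of the series were not analysed here.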

Additional observations from a re-analysis of the deposited data

Results flagged for a closer look

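For 11 genes named in the report, the difference between tTregs and Tconvs passed the thresholds in opposite directions in resting and in activated cells. The change of the log2 fold change from resting to activated cells is given with its adjusted p as an interaction in the limma fit. Since the genes were picked for their opposite calls in the same fit, this p is no independent support. The activated contrast uses 6 libraries that the resting contrast does not. Values are log2 fold changes, tTregs over Tconvs.

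Higher in resting and lower in activated tTregs were receptors, cytokines, interferon-inducible and cycling genes. *Cd74* stood at 1.67 in resting and -2.58 in activated cells, a change of -4.26 (adjusted p = 3.12e-07). *Gbp2* stood at 2.14 in resting and -3.23 in activated cells, a change of -5.37 (adjusted p = 2.64e-11). *Il12rb1* stood at 2.52 in resting and -2.10 in activated cells, a change of -4.63 (adjusted p = 3.05e-11). *Il4ra* stood at 1.74 in resting and -0.58 in activated cells, a change of -2.33 (adjusted p = 1.10e-10). *Irf4* stood at 2.64 in resting and -3.49 in activated cells, a change of -6.13 (adjusted p = 1.10e-10). *Lif* stood at 3.60 in resting and -2.93 in activated cells, a change of -6.53 (adjusted p = 5.19e-08). *Lta* stood at 2.66 in resting and -1.35 in activated cells, a change of -4.01 (adjusted p = 2.23e-11). *Top2a* stood at 1.83 in resting and -0.57 in activated cells, a change of -2.40 (adjusted p = 3.41e-08). In resting Tconvs *Lif* had reads in 1 library only, so that its resting value depends on the pseudocount, from 1.94 ± 0.16 with 5 to 5.92 ± 0.80 with 0.1.

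Lower in resting and higher in activated tTregs were a migration receptor and a pair of calcium entry genes. *Gpr183* stood at -3.34 in resting and 0.75 in activated cells, a change of 4.09 (adjusted p = 4.33e-10). *Orai2* stood at -1.54 in resting and 0.72 in activated cells, a change of 2.26 (adjusted p = 1.23e-07). *Stim1* stood at -1.13 in resting and 0.63 in activated cells, a change of 1.76 (adjusted p = 1.36e-06).

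Among all genes tested, opposite calls were found for 382 genes. Each group holds 3 libraries, too few for the test of single outlying libraries.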

How the results depend on the processing

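Of the 128 called genes named, 121 kept their call and direction under every alternative of the fit, the exceptions being *Ccna2*, *Cd8b1*, *Hmmr*, *Il10*, *Il2rg*, *Rps27l* and *Tbx21*, and no named gene was called in the opposite direction, while 11 of the 23 uncalled genes named were called under some alternative. Between 3436 genes (a filter of 100 normalized counts) and 5898 genes (adjusted p alone) were called in resting cells, and with an absolute log2 fold change above 1 there were 2268 in resting and 2794 in activated cells, since that threshold is stricter. Leaving out each library in turn gave 4168 to 4462 genes in resting and 5172 to 5663 in activated cells. Replicate numbers are shared by the groups, but libraries with the same number did not deviate together (correlations of -0.0368, 0.00749 and -0.13 in resting cells), and with a replicate block 4399 and 5497 genes were called, against 4441 and 5535 without. Of the genes named, the block changed the call of *Egr1*, to lower (adjusted p = 0.0466). On recovered reads edgeR called 4376 and DESeq2 4344 genes in resting cells. With the length trend removed 4173 were called, 2144 higher and 2029 lower. Of counts of list members under the alternatives, 927 stayed within 1.5 times and 41 did not. Fold changes of genes at or near 0 in one group move with the pseudocount, so that bounds or counting ratios are given where a group had up to 3 reads of a gene described by its size. Depth limits genes under about 10 normalized counts, such as *Il2*, *Ifng* and *Il10*.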

Other observations

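Several lists whose resting values were mixed stood further apart in activated cells. Of 25 interferon-stimulated genes 17 were lower and 3 higher in activated tTregs than in activated Tconvs (median log2 fold change -1.27), against 7 lower and 6 higher in resting cells. *Ifng*, the gene of interferon-γ, near the floor in resting cells, was at 0.315 ± 0.546 in activated tTregs and 30.8 ± 6.11 in activated Tconvs (SD, n = 3). Of 27 proliferation genes 16 were lower and 3 higher in activated tTregs (median -0.82). The effector cytokine list had 6 lower and 1 higher genes of 9 (median -2.93), and the TNF ligands had 7 lower and 2 higher of 11 (median -1.62).

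Chemokine receptors and calcium genes went the other way. Of 20 chemokine and migration receptors 15 were higher and 4 lower in activated tTregs (median 1.51), and of 35 calcium and NFAT genes 20 were higher and 7 lower (median 0.72). The lists were not tested for a difference between both contrasts. Over all genes tested 25.6% were higher and 22.6% lower in activated tTregs.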
